A study of Mus musculus with 5 samples.

Results

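The gamma-crystallin genes are described here, as the 8 rows Cryga, Crygb, Crygc, Crygd, Cryge, Crygf, Crygn and Crygs of a count table with 12370 gene symbols. The members were taken by symbol, and all 8 had a row and passed the filter on low counts, so that 8 of the 12035 genes tested are members. RNA came from lenses of mouse embryos at embryonic day 14. Embryos without Cre, with both N-myc alleles flanked by loxP sites, gave the 3 control libraries, and the labels also describe controls with loxP-flanked c-myc, without saying which library had which genotype. The 2 knockout libraries came from embryos with the same N-myc alleles and 1 copy of Mlr10-Cre, a transgene that expresses Cre recombinase in the lens. No control carried that transgene, so its effects and those of the deletion cannot be told apart. Lysates of lenses from single animals were pooled before RNA was purified, and how many animals made up a pool is not given.

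Crystallins are the soluble proteins that give the lens its refractive power. Gamma-crystallins are compact monomers built of Greek key motifs, made by elongating fibre cells and packed most densely in the centre of the rodent lens, and mutations in them are a known cause of cataract. Cryga to Crygf are closely related copies, Crygs encodes the gamma-crystallin known from later fibre cells, and Crygn encodes a divergent member with features of beta-crystallins. In GENCODE vM21 (GRCm38, the build mm10) Cryge (chr1:65048554-65051149), Crygd (chr1:65061872-65063452), Crygc (chr1:65071525-65073689), Crygb (chr1:65080219-65082288) and Cryga (chr1:65100389-65103373) lie in 1 array of 54.8 kb on the minus strand. Crygf (chr1:65926520-65928307) lies on the plus strand, 823 kb beyond Cryga. Crygn is at chr5:24751003-24758008 and Crygs at chr16:22805203-22811577, both on the minus strand. The main transcript has 4 exons for Crygn and 3 for each of the others.

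How close the copies are matters for reading their counts. Over aligned columns of the coding sequence, Cryge and Crygf were 98.1% identical, with 10 differing columns of 525. Crygd was 91.6% identical to Cryge and 90.7% identical to Crygf, and Crygb and Crygc were 83.3% identical. Crygn and Crygs were at most 60.4% identical to any other member. The first 90 coding bases of the 6 members on chromosome 1, which span exons 1 and 2 of the main GENCODE transcript, are shown to make this visible, with capitals at the 11 positions where the 6 are not all the same:
Cryga: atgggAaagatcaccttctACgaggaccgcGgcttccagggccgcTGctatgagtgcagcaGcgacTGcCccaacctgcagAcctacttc
Crygb: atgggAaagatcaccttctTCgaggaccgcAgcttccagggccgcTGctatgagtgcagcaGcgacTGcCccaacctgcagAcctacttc
Crygc: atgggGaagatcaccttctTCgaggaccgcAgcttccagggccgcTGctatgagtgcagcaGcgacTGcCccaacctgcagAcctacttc
Crygd: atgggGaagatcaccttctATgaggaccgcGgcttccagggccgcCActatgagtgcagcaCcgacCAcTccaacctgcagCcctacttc
Cryge: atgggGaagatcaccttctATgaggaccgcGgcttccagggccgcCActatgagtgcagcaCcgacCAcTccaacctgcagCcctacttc
Crygf: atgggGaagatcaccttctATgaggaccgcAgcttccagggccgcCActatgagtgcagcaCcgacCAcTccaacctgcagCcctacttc
In this stretch Crygd and Cryge are the same, and Crygf has 1 capital that differs from them.

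A read that fits several copies can be dropped or misplaced, and neither the read length nor the handling of such reads is stated in the sources. Of the 50-base windows in the main transcripts, 57.0% of those of Cryge also occur in a transcript of another member, against 35.0% for Crygf, 34.0% for Crygd, 29.4% for Crygb, 24.0% for Crygc and 5.73% for Cryga. For Crygn and Crygs the share was 0%. With 100-base windows the shares were 27.1%, 11.9%, 15.8%, 22.8%, 17.8% and 0% in the same order from Cryge to Cryga. The sharing falls into blocks, since nearly all shared windows of Crygd, Cryge and Crygf are shared among those 3 and all shared windows of Crygb are shared with Crygc. Counts of single members of these blocks are therefore uncertain, and sums over a block are given beside them. Cryga overlaps a further annotated gene, Gm28845, on the same strand, which has 301 of the 576 Cryga windows of 50 bases and was not analysed here.

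Each library held between 13162384 and 13746416 counts. On the first principal component of all genes, which held 64.6% of the variance, knockout replicate 1 stood apart at 43.5, with knockout replicate 2 at 10.5 and the controls between -19.4 and -16.7.

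All 8 genes had log2 fold changes below 0 in the knockout lenses, as had 49.8% of all tested genes, but by unequal amounts. Crygf, Crygd, Crygb and Crygc fell between 2.02-fold and 3.06-fold, while Cryge, Crygs, Crygn and Cryga, with fitted values 1.17-fold to 1.64-fold lower, did not pass the test. Thus 4 of 8 members fell and 0 rose (edgeR quasi-likelihood test, adjusted p under 0.05 over all genes tested), where 8.51% of all tested genes fell. For 6 of the 8 members both knockout libraries lay below every control library, which held for 27% of all tested genes. For 0 members both lay above every control, against 25.5% of all tested genes. A log2 fold change of -1 or lower was found for the same 4 called members and for 0.922% of all tested genes. The median log2 fold change was -0.86 over the 8 members and 0.00207 over all tested genes. In bulk tissue, fewer fibre cells and less of a transcript per cell cannot be told apart.

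**Figure D1:**
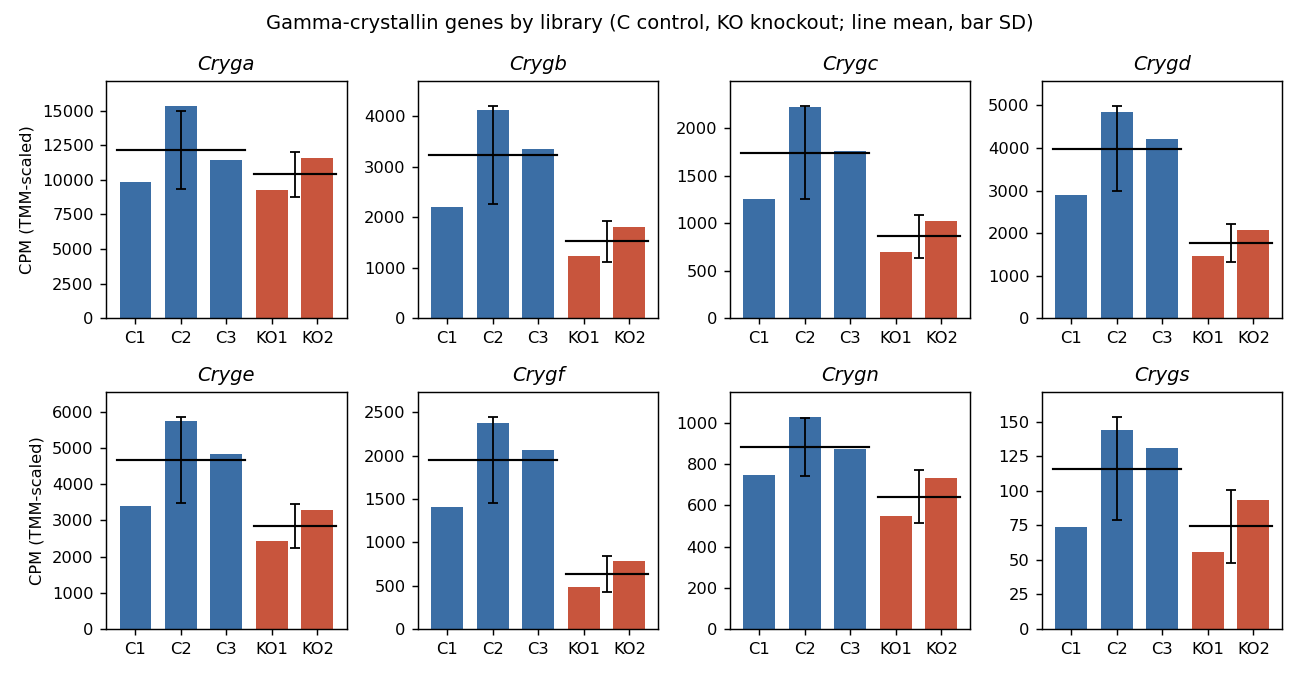
TMM-scaled CPM of the 8 genes in 3 control (C1 to C3, blue) and 2 knockout (KO1, KO2, red) libraries, 1 panel a gene, with the group mean as a line and the SD as a bar. Crygf stands at 489 and 783 CPM in the knockouts and at 1403 or more in the controls, while the Cryga groups overlap.

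Crygf showed the largest difference. It stood at 1403, 2380 and 2061 CPM (counts relative to the library total after TMM scaling) in control replicates 1 to 3 and at 489 and 783 CPM in knockout replicates 1 and 2. The groups did not overlap, and the highest knockout lay 0.84 below the lowest control on the log2 scale. The means were 1948 ± 498 CPM (SD, n = 3) and 636 ± 208 CPM (SD, n = 2), a 3.06-fold fall (edgeR adjusted p = 0.013, log2 fold change -1.62, SE 0.26). Ordered from the lowest fold change, Crygf stood at rank 29 of the 12035 genes.

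Crygd had 2897, 4841 and 4214 CPM in the controls and 1458 and 2079 CPM in the knockouts, again without overlap. The fall was 2.25-fold (log2 -1.17, SE 0.23, edgeR adjusted p = 0.021). Cryge, the copy nearest to Crygf in coding sequence, had 3405, 5751 and 4846 CPM in the controls and 2426 and 3281 CPM in the knockouts. Its highest knockout lay only 0.053 below its lowest control on the log2 scale. The log2 fold change of Cryge was -0.71 (SE 0.22), and with an edgeR adjusted p of 0.060 it did not pass the test. Summed over Crygd, Cryge and Crygf, which share most of their common windows with each other, the level went from 7705, 12972 and 11121 CPM to 4373 and 6144 CPM. The summed mean was 2.02-fold lower, and the groups did not overlap. A read given to the wrong one of these 3 copies leaves this sum as it is, while a read dropped for fitting several copies does not.

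Crygb had 2210, 4132 and 3345 CPM in the controls and 1238 and 1809 CPM in the knockouts. It fell 2.12-fold (log2 -1.08, SE 0.26, edgeR adjusted p = 0.034). Crygc had 1251, 2222 and 1758 CPM against 701 and 1021 CPM, and fell 2.02-fold (log2 -1.02, SE 0.25, edgeR adjusted p = 0.034). For both genes the knockout libraries lay below every control. Their summed level was 4973 ± 1451 CPM in the controls (SD, n = 3) and 2385 ± 630 CPM in the knockouts (SD, n = 2), 2.08-fold lower.

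Cryga was the most abundant member and the one with the smallest difference. It had 9826, 15313 and 11453 CPM in the controls and 9241 and 11553 CPM in the knockouts, so that the groups overlapped. The log2 fold change was -0.23 (SE 0.19, edgeR adjusted p = 0.41). Crygn, with no shared windows, had 746, 1028 and 876 CPM against 550 and 732 CPM (edgeR adjusted p = 0.086, log2 fold change -0.46, SE 0.17). Its groups were separated by 0.028 on the log2 scale, and it did not pass the test. Crygs was the least abundant member, at 73.5, 144 and 131 CPM in the controls and 55.5 and 92.9 CPM in the knockouts, with overlapping groups and a log2 fold change of -0.64 (edgeR adjusted p = 0.16, SE 0.30).

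Libraries of a group differed from each other in the same direction for every member. Control replicate 1 was the lowest and control replicate 2 the highest control for each of the 8 genes, and knockout replicate 1 was below knockout replicate 2 for each. Calls depended on single libraries. Without control replicate 2 or without control replicate 3, 0 members passed the edgeR threshold, where 0.317% and 1.98% of all genes passed, down from 16.5%, so that these 2 fits called few genes of any kind. Crygf then had adjusted p of 0.061 and 0.051, and its log2 fold changes were -1.44 and -1.57. At an unadjusted p under 0.05, Crygb, Crygc, Crygd, Cryge and Crygf passed without control replicate 2, and the same 5 and Crygn without control replicate 3. This looser threshold was also passed by 3157 of 11999 tested genes without control replicate 2 and by 3253 of 11997 without control replicate 3. Without knockout replicate 1, which leaves 1 knockout library, the log2 fold change of Crygf was -1.31. Without control replicate 1, 6 members fell, Cryge and Crygs among them, where 7.8% of all tested genes fell. Without knockout replicate 2, which leaves 1 knockout library, the log2 fold changes of Cryge and Crygs were -0.95 and -1.06. In each of 15 alternative fits all 8 members had log2 fold changes below 0. Crygf ranged from -2.00 to -1.31 and Cryga from -0.40 to -0.022 over those fits, so that their ranges did not meet.

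**Figure D2:**
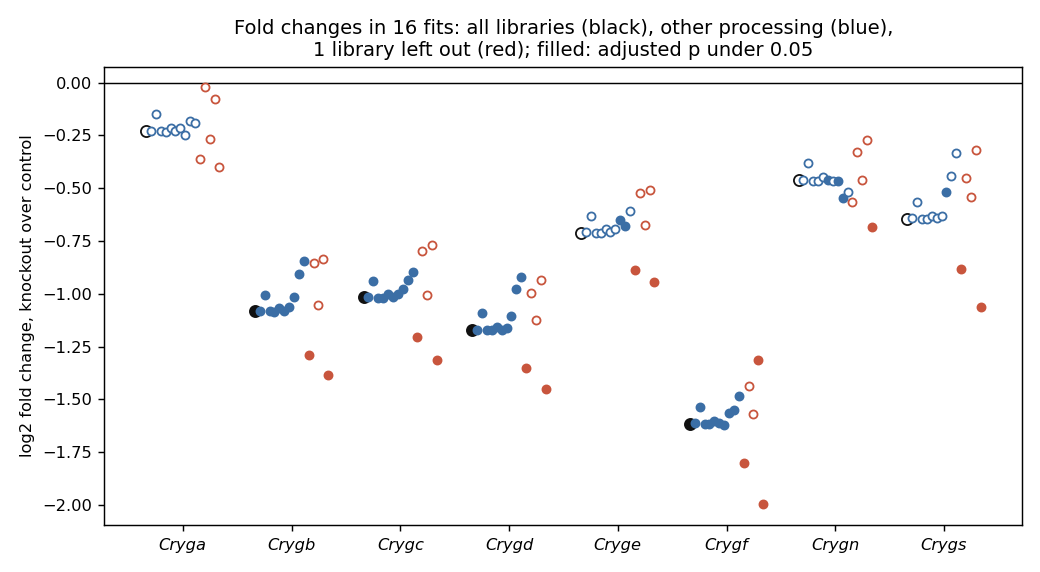
Log2 fold changes of each gene in 16 fits, with all libraries (black), other scaling, filters or tests (blue) or 1 library left out (red), filled where the adjusted p was under 0.05. All points lie below 0, and the points of Crygf (-2.00 to -1.31) lie below all those of Cryga (-0.40 to -0.022).

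Levels per kilobase of the main transcript allow for its length, but not for any reads lost from shared windows, so their order is uncertain. On this scale Cryga led among the controls with 19516 ± 4509 CPM per kb (SD, n = 3). Cryge (7397 ± 1876), Crygd (6499 ± 1618) and Crygb (5093 ± 1524) followed, each within the SD of its neighbour. Crygf (3107 ± 794), Crygc (2227 ± 620), Crygn (1150 ± 184) and Crygs (132 ± 42.6 CPM per kb) came last. In the knockouts the order of the means was the same except that Crygf (1014 ± 332 CPM per kb, SD, n = 2) stood below Crygc (1100 ± 289), a difference within their SDs. The order of the levels was not the order of the changes, since Crygf and Crygc, neighbours in level, had fold changes of -1.62 and -1.02 on the log2 scale.

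Ratios between members within a library do not depend on how libraries are scaled, though reads from windows shared by 2 copies could blur them. The raw Crygf count was 41.2%, 41.4% and 42.5% of the Cryge count in the 3 controls, but only 20.1% and 23.9% of it in the 2 knockouts. The 3 controls lay close together, and both knockouts lay far below them. The difference was -0.93 on the log2 scale (SD 0.025 in the controls, n = 3, and 0.17 in the knockouts, n = 2), or 1.90-fold. Crygd to Cryge ran at 85.1%, 84.2% and 87.0% among the controls and 60.1% and 63.4% among the knockouts. Crygb to Crygc, in contrast, was 177%, 186% and 190% in the controls and 177% in each knockout, with overlapping groups.

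Relative to Cryga, Crygf stood at 14.3%, 15.5% and 17.99% among the controls and at 5.29% and 6.78% among the knockouts, 2.65-fold lower. Crygd, Crygb, Crygc and Cryge relative to Cryga were 1.93-fold, 1.80-fold, 1.73-fold and 1.39-fold lower, each without overlap of the groups. Of the 10 ratios computed, 7 gave an exact two-sided permutation p of 0.1 (adjusted 0.14 over the 10), which is the smallest this test can give with 3 against 2 libraries, so that it cannot pass 0.05 for a single ratio. The exact p was 0.2 for Crygn to Cryga and 0.3 for Crygs to Cryga and for Crygb to Crygc.

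**Figure D3:**
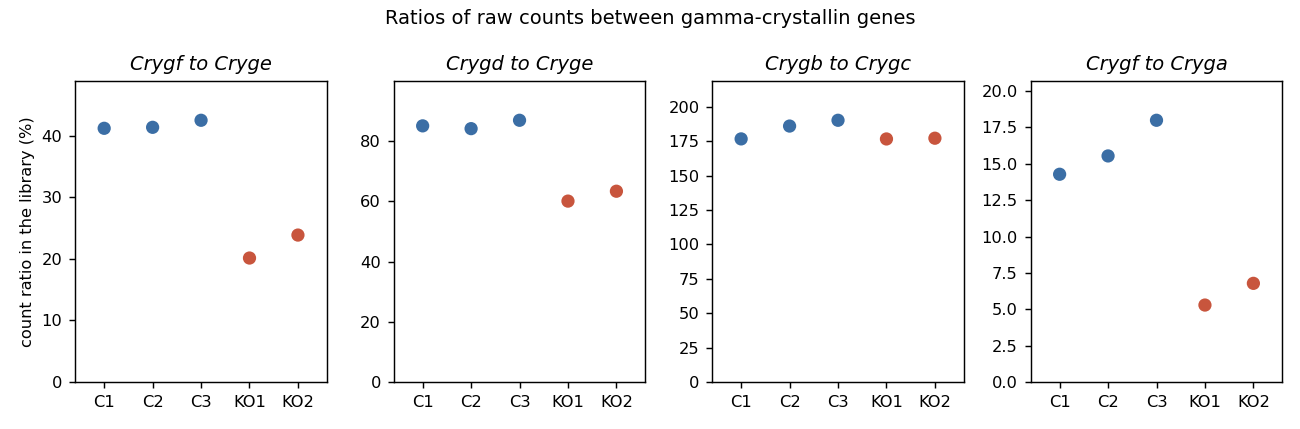
Raw count of 1 gene as a percentage of the count of another in the same library, for 4 pairs (controls blue, knockouts red). Crygf to Cryge lies between 41.2% and 42.5% among the controls and at 20.1% and 23.9% among the knockouts, whereas Crygb to Crygc overlaps between the groups.

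The make-up of the family's counts differed accordingly. Cryga took 45.05%, 42.8% and 39.9% of all gamma-crystallin counts in the 3 controls, while it took 57.2% and 54.1% in the 2 knockouts. The share of Crygf was 6.43%, 6.65% and 7.18% among the controls and 3.02% and 3.67% among the knockouts, and that of Crygd went from between 13.3% and 14.7% to 9.02% and 9.74%. The share of Cryge differed little, at 16.2% ± 0.653 (SD, n = 3) and 15.2% ± 0.249 (SD, n = 2), although the groups did not overlap. The shares of Crygn and Crygs overlapped between the groups.

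**Figure D4:**
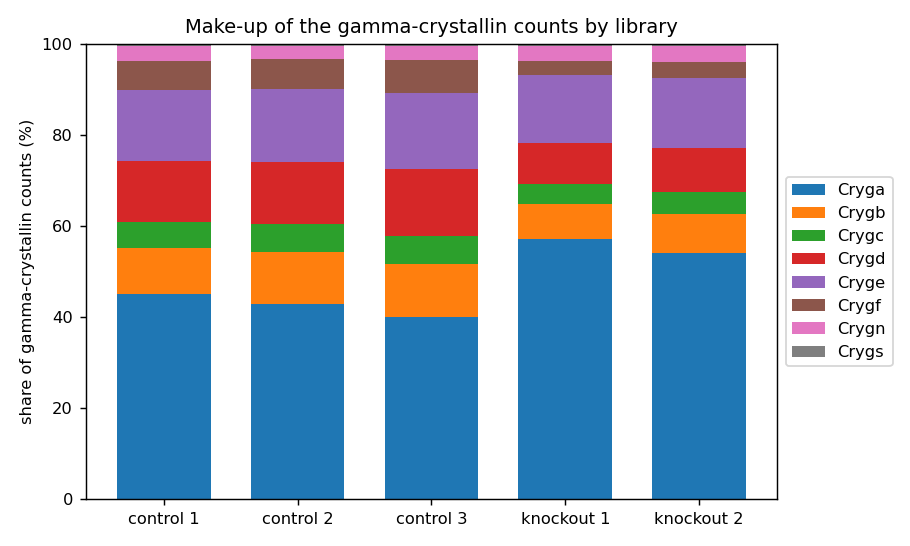
Share of each gene in the summed gamma-crystallin counts of a library, as stacked bars of 100% for 3 controls and 2 knockouts. The blue part, Cryga, takes 39.9% to 45.05% of a control library and 54.1% or 57.2% of a knockout library.

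Summed over the 8 genes, the level was 21812, 35811 and 28683 CPM in the controls and 16159 and 21352 CPM in the knockouts. The groups did not overlap, but knockout replicate 2 lay close below control replicate 1. The mean of the sum was 1.53-fold lower (log2 ratio -0.62) and Cryga made up the largest part of it. Without Cryga the sum of the other 7 was 16571 ± 4294 CPM in the controls (SD, n = 3) and 8358 ± 2038 CPM in the knockouts (SD, n = 2), 1.98-fold lower. The gamma-crystallins made up 2.11% to 3.45% of all counts in the 3 controls, against 1.71% and 2.17% in the 2 knockouts, and here the groups overlapped. No p is given for these sums.

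The alpha- and beta-crystallins, the other crystallin classes of the lens, served for comparison. Of 8 such genes 1 fell, where 8.51% of all tested genes fell. It was Cryab, which encodes the chaperone alpha-B crystallin (edgeR adjusted p = 0.024, log2 fold change -0.65, SE 0.14). The call was lost without control replicate 2 (adjusted p = 0.092), control replicate 3 (0.076) or knockout replicate 1 (0.14). The median log2 fold change of the 8 was -0.28, and the summed level was 95314 ± 13182 CPM in the controls (SD, n = 3) and 88397 ± 10427 CPM in the knockouts (SD, n = 2), with overlapping groups. Gamma-crystallins were 20.4%, 24.5% and 24.0% of the counts of all 16 crystallins in the 3 controls, against 16.6% and 18.2% in the 2 knockouts. This share did not overlap between the groups. Cryaa, the most abundant crystallin, was at 41907 to 51879 CPM in the controls and 44250 and 50158 CPM in the knockouts, and every gamma-crystallin but Crygs had at least 488.5 CPM in each library.

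**Figure D5:**
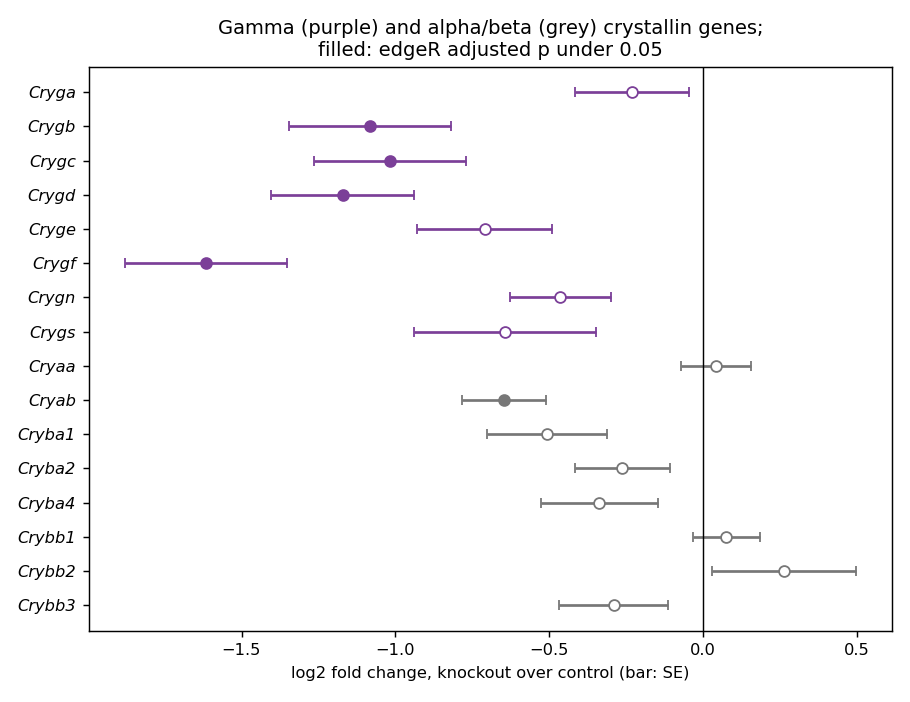
Log2 fold changes with their SE for 8 gamma-crystallin genes (purple) and 8 alpha- and beta-crystallin genes (grey), filled where the edgeR adjusted p was under 0.05. The filled points are Crygb, Crygc, Crygd, Crygf and Cryab.

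Mycn, the N-myc transcription factor gene targeted in the knockout, had 162, 148 and 140 CPM in the controls and 57.3 and 81.9 CPM in the knockouts, so that it was lower but not at 0 (edgeR adjusted p = 0.0097, log2 fold change -1.11, SE 0.15). Its adjusted p was 0.056 without control replicate 2. Of 20 genes for transcription factors and cofactors known at crystallin promoters, 2 fell and 2 rose, against 8.51% lower and 7.98% higher of all genes. Maf, the large Maf factor of fibre cells, had 1277, 1267 and 1402 CPM in the controls and 772 and 1030 CPM in the knockouts and fell (edgeR adjusted p = 0.035, log2 fold change -0.55, SE 0.13). Hsf4, a heat shock factor active in fibre cells, fell by 0.35 on the log2 scale (SE 0.079, edgeR adjusted p = 0.029). Pitx3, a homeobox factor of the lens, rose by 0.54 (SE 0.12, adjusted p = 0.026), and Gata3, a zinc finger factor of differentiating fibres, rose by 0.43 (SE 0.12, adjusted p = 0.043). The tally depended on the scaling, with 6 higher and 2 lower when libraries were scaled by their totals, and 0 higher and 5 lower with the trends on transcript length and GC content removed. In the latter fit Pitx3 stood at 0.10 (adjusted p = 0.47), Gata3 at 0.39 (0.057), Hsf4 at -0.65 (0.0068) and Maf at -0.65 (0.030). None of the 4 passed without control replicate 2 (adjusted p 0.093 to 0.14), control replicate 3 (0.064 to 0.12) or knockout replicate 1 (0.10 to 0.26).

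Of 18 tested genes for fibre structure and fibre differentiation, 10 fell and 0 rose, where 8.51% of all genes fell, with a median log2 fold change of -0.68. Bfsp1, the beaded filament protein filensin, was 3.07-fold lower, and Caprin2, an RNA-binding protein of fibres, was 2.25-fold lower. Dnase2b, the nuclease of fibre cell nuclear removal, was 7.97-fold lower, and Lenep 2.06-fold. Leaving out control replicate 2 left 1 that fell, and leaving out control replicate 3 or knockout replicate 1 left 4. Of 10 genes of the lens epithelium 2 rose, where 7.98% of all genes rose. They were Ptn, a secreted growth factor (2.07-fold), and Slc7a8, an amino acid transporter (1.23-fold). With the length and GC trends removed, 1 rose, and Slc7a8 stood at 0.087 on the log2 scale (adjusted p = 0.40). This list's median was -0.00293 on the log2 scale, and 0 of its genes rose once control replicate 2 was left out, and 1 once control replicate 3 or knockout replicate 1 was.

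Summed retina markers lay above every control in both knockouts, while summed mesenchyme markers did so only in knockout replicate 1. Of 11 tested retina genes 8 rose, where 7.98% of all genes rose. The summed level of the retina genes was 182 to 297 CPM in the controls and 358 and 502 CPM in the knockouts. Of 12 mesenchyme genes 6 rose, with summed levels of 161 to 450 CPM in the controls and 2044 and 349 CPM in the knockouts, so that knockout replicate 1 was highest for mesenchyme and knockout replicate 2 for retina. With 1 control library left out, 0 to 6 retina genes and 0 to 2 mesenchyme genes rose, both being 0 without control replicate 2. The median log2 fold change of the mesenchyme genes was 2.25 with all libraries. It was 0.28 without knockout replicate 1 and 3.05 without knockout replicate 2. For the retina genes these medians were 1.96, 2.52 and 0.84. No retina or mesenchyme marker was at 0 in any library. With the length and GC trends removed, 6 retina and 3 mesenchyme genes rose. The part of these tissues in the result was not tested. Of 5 tested red blood cell, 8 endothelium, 7 macrophage and 4 surface ectoderm genes, 0, 0, 1 and 0 rose and 0 fell. For 6 of the 7 macrophage genes both knockouts lay above every control, against 25.5% of all genes, with a median log2 fold change of 0.76 and sums of 25.1 to 48.5 CPM in the controls and 53.0 and 53.9 CPM in the knockouts. Their part in the result was not tested either. Mitochondrial transcripts, listed as a sign of RNA quality, were not analysed here.

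Genes near the members on the chromosome were also read. Around the array, Plekhm3 and Ccnyl1 before it and D630023F18Rik, Idh1 and Pikfyve after it did not pass the test, with log2 fold changes between -0.27 and 0.092. Fzd5, a Wnt receptor whose left end lies 318 kb before that of Cryge, rose (edgeR adjusted p = 0.014, log2 fold change 0.95, SE 0.16). On the far side of Crygf, Map2, a microtubule protein, had -0.20 (SE 0.22, adjusted p = 0.54), Rpe, an enzyme of the pentose phosphate pathway, fell (log2 fold change -0.56, SE 0.13, adjusted p = 0.030), and Kansl1l had 0.39 (adjusted p = 0.061). Over the 21 tested genes nearest to the array, Crygf, Crygn and Crygs, 4 fell and 4 rose, against 8.51% and 7.98% of all genes, and the median log2 fold change was -0.098.

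The genes whose profile over the 5 libraries was closest to that of the summed gamma-crystallins, among 3571 genes with a mean of at least 50 CPM, were Rpl14-ps1, Rpl32, Cryba1, Rps26 and Pomp. Likeness was the root mean square difference of centred log2 (CPM + 1) values, which was 0.051 to 0.067 for these 5. Cryba1 encodes a beta-crystallin, Rpl32 and Rps26 encode ribosomal proteins, Rpl14-ps1 is a ribosomal protein pseudogene and Pomp encodes a proteasome assembly factor. Cryba1, for example, had 15224, 24284 and 20603 CPM in the controls and 12275 and 15938 CPM in the knockouts, with the lowest control in replicate 1 and the highest in replicate 2 as for the gamma-crystallins.

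The proximal promoters of the copies were compared last. The 100 bases before the RefSeq start (GRCm38.p6) are shown for 5 members, written 5′ to 3′ on the gene's strand. Capitals mark TATATA and, where present, the longest run of letters that 4 or more members share within 250 bases before the start, an 18-base run found after the promoters were seen. The windows are chr1:65103364-65103463 for Cryga, chr1:65082291-65082390 for Crygb, chr1:65063441-65063540 for Crygd and chr1:65051164-65051263 for Cryge, all on the minus strand, and chr1:65926422-65926521 on the plus strand for Crygf:
Cryga: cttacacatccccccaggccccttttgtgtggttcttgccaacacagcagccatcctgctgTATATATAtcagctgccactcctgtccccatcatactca
Crygb: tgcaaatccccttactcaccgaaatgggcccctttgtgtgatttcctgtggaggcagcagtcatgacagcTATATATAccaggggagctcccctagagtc
Crygd: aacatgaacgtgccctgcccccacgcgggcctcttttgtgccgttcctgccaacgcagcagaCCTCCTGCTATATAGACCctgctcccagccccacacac
Cryge: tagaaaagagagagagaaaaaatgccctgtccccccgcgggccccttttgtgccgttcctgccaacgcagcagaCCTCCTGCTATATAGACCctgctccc
Crygf: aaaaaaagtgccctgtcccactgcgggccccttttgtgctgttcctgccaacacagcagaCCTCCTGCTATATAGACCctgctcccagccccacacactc
The windows of Crygd and Crygf were 87.3% identical over aligned columns, those of Cryge and Crygf 70.2%, and those of Cryga and Crygf 67.0%. The windows end at each gene's RefSeq start, and the 18-base run begins at base -26 in Cryge, -38 in Crygd and -40 in Crygf. The alignment of Cryge with Crygf took 114 columns, against 102 for Crygd with Crygf. Unmatched window ends thus lower the value for Cryge, and these identities do not rank the promoters by likeness. In the 250 bases before the start, on either strand, TATATA was found in 7 of 8 members, all but Crygs, and in 5.25% of 32851 RefSeq promoter windows. The shared run CCTCCTGCTATATAGACC, which contains a TATATA, was found in Crygc, Crygd, Cryge and Crygf and in no other of the 32851 windows. The run was chosen for being shared by 4 members. The 0.0122% of windows that have it are those 4 members, so that this is no background share. Of the members that have the run, Crygc, Crygd and Crygf fell and Cryge did not pass the test, and of those without it Crygb fell. TGCTGA, a part of the Maf recognition element, was found in 4 members (Cryga, Crygc, Crygn and Crygs) and in 16.1% of windows. CACGTG, an E-box bound by MYC proteins, was found in 0 members and in 6.02% of windows.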

How the data were processed

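The authors deposited 1 table for the 5 libraries, whose values are whole-number counts per gene. The submitters' processing notes list HTSeq 0.6.1, TopHat2 2.0.13, Cufflinks 2.2.1, Trim Galore 0.3.7 and DESeq2, and the build mm10, without saying what each was used for. Annotation, strand setting and treatment of reads that fit several genes are not given. Groups and replicate numbers came from sample titles, and the labels call the libraries biological replicates. Within a group, no pair agreed within sampling noise (chi-square per degree of freedom 9.98 to 23.4), so each library counted as 1 sample. The p-values set the difference between groups against the spread between pools, which is not the spread between animals.

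Rows with a symbol were fitted with edgeR 4.0.16 in R 4.3.3 (filterByExpr with a minimum count of 10, which removed 335 symbols, TMM scaling, glmQLFit and glmQLFTest, no covariate), with Benjamini-Hochberg adjustment over 12035 genes and a threshold of 0.05. The biological coefficient of variation was 14.1%. An SE was obtained from the log2 fold change and the square root of its F statistic. The fit was checked on simulated counts. Alternatives were other scalings and filters, DESeq2 1.42.0, limma-voom 3.58.1, a replicate block, offsets for transcript length and GC content (known for 98.1% of genes) and each library left out. The gene lists cover alpha- and beta-crystallins, promoter factors, fibre structure, lens epithelium, retina, mesenchyme, red blood cells, endothelium, macrophages, surface ectoderm and mitochondrial transcripts. Named genes were the members, Mycn, up to 4 genes a list by smallest p, the 5 closest profiles and the 3 nearest tested genes on each side. The members and lists were chosen with earlier results of these data known. Identities came from global alignments in Biopython 1.88. All 8 members matched RefSeq's promoter table (GRCm38.p6) by symbol.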

Additional observations from a re-analysis of the deposited data

How the results depend on the processing

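The number of members that fell was 4 with all libraries. With the replicate block it was 7, where 4.34% of all tested genes fell. Control replicate 3 has no knockout of its number, so fits with the block compared the groups only within replicates 1 and 2. Leaving out 1 control library gave 6 (control replicate 1) or 0 (control replicate 2, and likewise control replicate 3). With length and GC offsets 6 fell (Cryge at adjusted p = 0.038 and Crygn at 0.031 in addition), 4 when these were combined with the block, and 5 with DESeq2 (Crygn at 0.019 in addition). The other scalings, filters and limma-voom gave 4, where 5.29% to 9.79% of all tested genes fell. No member rose in any fit. The log2 ratio of the summed level was -0.62, and -0.62 to -0.54 under the other settings that take it over all libraries. With the replicate block it was the mean log2 ratio of replicates 1 and 2, without control replicate 3. That value was -0.59, and -0.51 with the offsets added. With 1 library left out the log2 ratio of the summed level was -0.83 to -0.42. Scaling by totals moved the median of all genes to 0.087, and 70.3% of calls were then higher, against 48.4%; with length and GC offsets the share was 27.4%.

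Over all genes 1984 passed, 995 with the replicate block, 1289 with length and GC offsets, 273 with both, and 38, 237 and 292 without control replicate 2, control replicate 3 and knockout replicate 1. Replicate numbers 1 and 2 are shared by the groups, but deviations from the group means correlated at -0.070 and 0.043 for the same number, so the numbers were not taken to pair the libraries. The log2 difference of the Crygf to Cryge ratio was -0.81 without knockout replicate 1 and -1.05 without knockout replicate 2, and that of Crygd to Cryge was -0.43 and -0.51. The lowest raw count of a member in any library was 776 (Crygs).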
